A study of Homo sapiens with 3 samples.

Results

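The genes APOA5, APOA4, APOC3 and APOA1 lie side by side on human chromosome 11 and encode apolipoproteins, the protein components of lipid-carrying particles in blood. The FOXA2 binding around them in Caco2 cells is described here from 22 peaks, of 90856 in all. These are the peaks of both replicate lists whose midpoint lies within chr11:116560000-116810000 on hg19, a stretch of 250 kb that holds the 4 genes with about 100 kb on each side. Replicate 1 held 16 of them, of 63949, and replicate 2 held 6, of 26907. The members were chosen by position, in a region selected on the high score of a FOXA2 site known to lie in it, so the scores given here describe the region and are not tested.

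The study mapped FOXA2 by ChIP-seq in Caco2, an established human colorectal adenocarcinoma line often taken as a stand-in for intestinal epithelium, grown in low-glucose DMEM with 10% FBS. The 2 replicate libraries, with 26183147 and 15756702 tags, used the same FOXA2 antibody and were each compared by the peak caller with an input library made without antibody. All libraries come from this single line in a single condition, and no label tells whether the libraries came from separate cultures, so their spread may be technical. No expression was measured, and the sites are not tied to the output of any gene.

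FOXA2 is a forkhead transcription factor of endoderm-derived tissues that binds short sequences with the core TGTTTAC or TATTTAC and can do so on closed chromatin. Liver and small intestine are the main sites of expression of this gene cluster. APOA1 is the main protein of high-density lipoprotein, APOC3 inhibits the clearance of triglyceride-rich particles, APOA4 is secreted by enterocytes on chylomicrons, and APOA5, made mainly in liver, promotes triglyceride breakdown by lipoprotein lipase. APOC3 is transcribed in the opposite direction to the other members. The stretch between APOA4 and APOC3 holds a long-studied enhancer that drives intestinal expression of APOC3, APOA4 and APOA1, and sequences just upstream of APOA1 hold binding sites for hepatic nuclear factors.

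Of the 4 genes, APOA5 and APOA4 matched an entry of the RefSeq promoter table, and a promoter of each is shown. A FOXA2 peak was called at the start of APOA5 in replicate 1 alone, and none within 2 kb of the start of APOA4 in either replicate. Both are RefSeq sequences on GRCh38.p14, minus strand, written 5′ to 3′ from 250 bases before to 50 bases after the annotated start. They are at chr11:116792371-116792670 for APOA5 and at chr11:116823255-116823554 for APOA4. Capitals mark a FOXA core.
APOA5: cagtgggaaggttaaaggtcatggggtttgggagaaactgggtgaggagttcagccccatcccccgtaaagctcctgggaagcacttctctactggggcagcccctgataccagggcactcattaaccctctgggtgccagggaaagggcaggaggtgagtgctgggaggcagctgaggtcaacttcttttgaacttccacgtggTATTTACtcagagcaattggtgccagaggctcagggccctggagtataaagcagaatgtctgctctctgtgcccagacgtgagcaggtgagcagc
APOA4: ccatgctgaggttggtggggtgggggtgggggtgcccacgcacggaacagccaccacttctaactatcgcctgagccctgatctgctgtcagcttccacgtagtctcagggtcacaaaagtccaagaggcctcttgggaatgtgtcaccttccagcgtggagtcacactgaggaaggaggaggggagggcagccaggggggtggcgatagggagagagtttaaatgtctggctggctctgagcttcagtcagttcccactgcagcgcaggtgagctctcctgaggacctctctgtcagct

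The APOA5 promoter holds a TATTTAC from 45 to 39 bases upstream of the annotated start. Of 35116 RefSeq promoter windows of the same length, 5.97% hold TGTTTAC or TATTTAC on either strand. The APOA4 promoter and the window of a second annotated APOA5 start hold neither. The other motifs searched, on both strands, were caaagtcca and caaaggtca for HNF4, the HNF1 palindrome, tttatgg and tttattg for CDX, and agataa and tgataa for GATA. None of the 9 motifs lies inside another. None of the 7 besides the FOXA cores has an exact match in the promoter windows of APOA5 or APOA4. Of the 35116 windows, 0.792% hold an HNF4 motif, 0.0057% the HNF1 palindrome, 6.35% a CDX motif and 16.3% a GATA motif. For each factor, absence from a window is thus the common outcome. A match is a description of the letters, not evidence of a bound site.

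FOXA2 peaks were found within 2 kb of the starts of APOC3 and APOA1 in both replicates, and of APOA5 in replicate 1 alone. Others lay inside APOC3 and at a distal site of high score between APOA5 and APOA4. What share of all genes has a peak within 2 kb of the start was not determined. In replicate 1, 5 of the 16 peaks had at least 1 bp in common with a peak of replicate 2 and are called shared sites. They make up 31.25% of the replicate 1 peaks (95% Wilson interval 14.2% to 55.6%), against 38.1% over the whole list. Seen from replicate 2, 5 of 6 peaks were shared, or 83.3% (43.6% to 97.0%), against 90.5% over its list. Both shares are near those of all peaks, taken without regard to score. The intervals treat each peak as an independent draw, which peaks of a single region need not be. The score of a peak is the authors' tag count scaled to 10000000 tags per library, here in normalised tags. The median score is 8 over all peaks of replicate 1 and 11 over those of replicate 2.

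**Figure D1:**
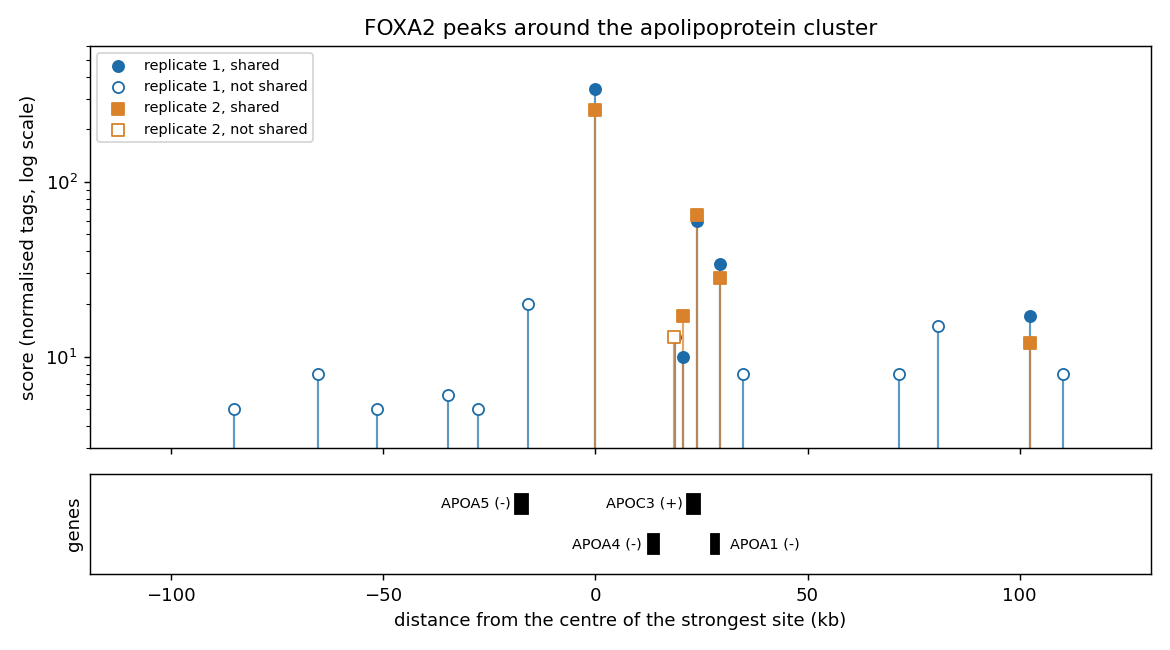
FOXA2 peaks in the 250 kb around the cluster, with the score (log scale) of each peak against its distance in kb from the centre of the strongest site, and the 4 genes with their strand below. Filled symbols are peaks that overlap a peak of the other replicate, and the highest score, 339 in replicate 1 and 259 in replicate 2, stands between APOA5 and APOA4.

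The strongest site, at chr11:116679078-116679200, lies in the stretch between APOA5 and APOA4. It scored 339 in replicate 1 and 259 in replicate 2, or 299 ± 56.6 (mean ± SD, n = 2). Its centre is 16.0 kb upstream of the APOA5 start and 12.3 kb beyond the 3′ end of APOA4. In the order of genes on GRCh38.p14 a non-coding RNA gene, LNC-RHL1, is also annotated between APOA5 and APOA4, and whether the site falls inside it was not determined. The site ranked 9 of all peaks in replicate 1 and 13 in replicate 2, and by the mean of its ranks it was number 1 of the 1599 shared sites of chromosome 11. It alone carried 60.4% of the summed score of the region's replicate 1 peaks and 65.7% of that of its replicate 2 peaks.

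APOC3 held the next site within its own borders. The peak at chr11:116703097-116703219 scored 60 in replicate 1 and 65 in replicate 2, or 62.5 ± 3.54 (SD, n = 2). It lies 2.53 kb past the start of APOC3 and 629 bp before the end of the gene, 80.1% of the way along it. Exons could not be assigned, since no annotation of the build was used here. Only 2.66% of replicate 1 peaks and 3.73% of replicate 2 peaks scored as high or higher. The strongest site exceeded it by 5.65 times in replicate 1 and by 3.98 times in replicate 2.

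A second, weaker shared site lay upstream of APOC3, in the stretch that separates it from APOA4. At chr11:116699796-116699918 it scored 10 in replicate 1 and 17 in replicate 2, or 13.5 ± 4.95 (SD, n = 2). Its centre is 767 bp upstream of the APOC3 start and 5.85 kb upstream of that of APOA4, which is transcribed away from it. This is an ordinary FOXA2 site: 40.3% of replicate 1 peaks and 34.3% of replicate 2 peaks scored at least as high.

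APOA1 had a shared site directly upstream of its start. The peak at chr11:116708436-116708558 scored 34 in replicate 1 and 28 in replicate 2, or 31 ± 4.24 (SD, n = 2). It spans 98 to 220 bp upstream of the APOA1 start, so it does not reach the start itself. Of all peaks, 7.49% of replicate 1 and 16.3% of replicate 2 scored as high or higher. Among the 4 genes, APOA1 and APOC3 had a shared site within 2 kb of the start, and APOA5 and APOA4 had none. The share of all genes with a shared site that near was not determined, so this is a description only.

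APOA5 had a peak at its start in a single replicate. At chr11:116663109-116663231 replicate 1 held a peak with a score of 20, about 52.4 tags, and the nearest replicate 2 peak was the strongest site, 16.0 kb away. The peak runs from 95 bp upstream of the start to 27 bp inside the gene. The TATTTAC printed above, at 45 to 39 bases upstream, lies within those distances. The start is that of hg19 for the peak and that of GRCh38.p14 for the sequence, and that they are the same base was not tested. Of 786 replicate 1 peaks with this score, 682, or 86.8%, overlapped a replicate 2 peak, so the absence of a partner here is the less common outcome. Replicate 2 lists only peaks past its threshold, so a lower signal at the APOA5 start cannot be read from it.

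APOA4 had no peak within 2 kb of its start in either replicate. The nearest lay 3.81 kb upstream in replicate 1, at chr11:116697758-116697880, and 3.61 kb upstream in replicate 2, at chr11:116697551-116697701. Both scored 13. Their centres were 193 bp apart with 56 bp between their edges, so they did not count as shared. Of the 2563 replicate 2 peaks over the genome with no overlap, 621, or 24.2%, had a replicate 1 centre within 500 bp. The same 2 peaks lie upstream of APOC3 as well, since the genes are transcribed away from each other.

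**Figure D2:**
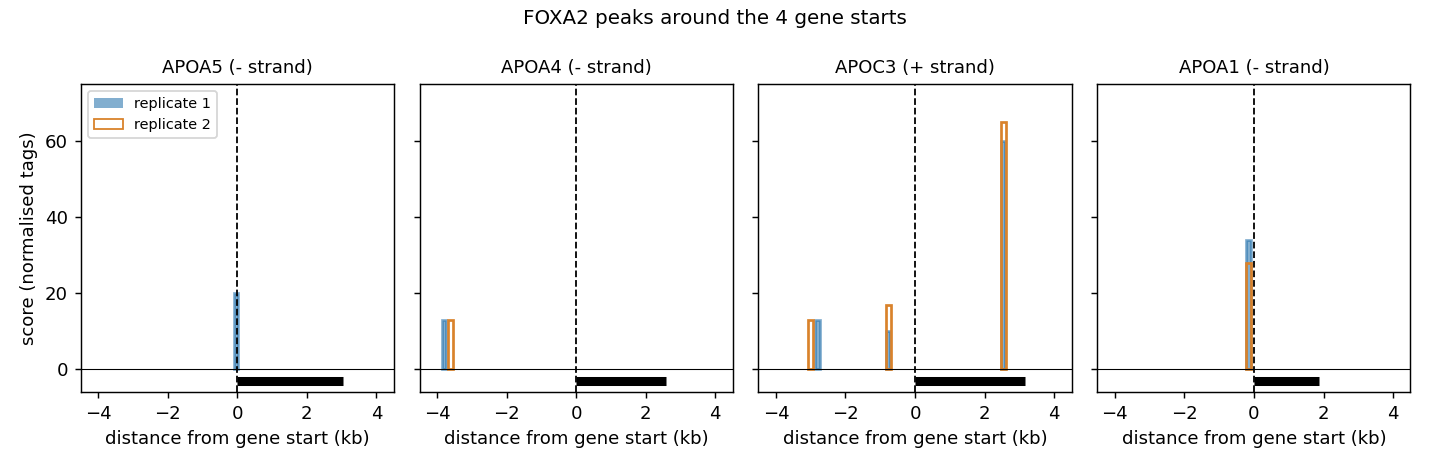
Score in normalised tags of every FOXA2 peak within 4.5 kb of the start of each gene, drawn at the width of the peak, with distance in kb along the direction of transcription (negative is upstream) and the gene as a black bar. A peak of both replicates stands before APOA1 and before and inside APOC3, the peak at APOA5 (score 20) is in replicate 1 alone, and the start of APOA4 is empty.

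The last shared site was far from the 4 genes. At chr11:116781541-116781663, 73.3 kb beyond the APOA1 start, it scored 17 in replicate 1 and 12 in replicate 2, or 14.5 ± 3.54 (SD, n = 2). On this side the next genes in the order on GRCh38.p14 are APOA1-AS, an antisense RNA gene, and SIK3, which encodes a salt-inducible kinase. Whether this site or the other peaks beyond APOA1 fall inside either gene was not determined. On the other side the next genes are ZPR1, a zinc finger protein gene, BUD13-DT, a non-coding RNA gene, and BUD13, a splicing factor gene. Replicate 1 held 5 peaks before APOA5, with scores from 5 to 8, and replicate 2 held none there.

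The replicates put the 3 strongest sites in the same order, the distal site before APOC3 and APOA1, while the 2 weakest changed places. Their centres differed by 3 to 17 bp. The ratio of replicate 1 to replicate 2 was 1.31 at the strongest site (exact 95% interval 1.16 to 1.48, covering counting error only), near the median of 1.20 over all 24345 shared sites. It was 1.21 at the APOA1 site (0.839 to 1.79), 0.923 at the site inside APOC3 (0.717 to 1.20) and 1.42 at the site beyond APOA1 (0.817 to 2.58). The lowest ratio, 0.588 (0.325 to 1.03), was that of the site upstream of APOC3, and 4.75% of all shared sites had a ratio as low or lower. Replicate 2 thus scored higher at 2 of the 5 sites, both of them at APOC3, against 29.7% of all shared sites. The 5 intervals are unadjusted for their number. After rounding, the interval of the site inside APOC3 ends at the median ratio of 1.20, and that of the site upstream of APOC3 ends below it. Both intervals rest on approximate tags taken from whole-number scores. They cover counting error only, so this is no test of either site. Over all shared sites the interquartile range of the ratio was 0.9 to 1.6. The 5 intervals compare 2 libraries whose peaks were 123 bp and 151 bp wide.

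**Figure D3:**
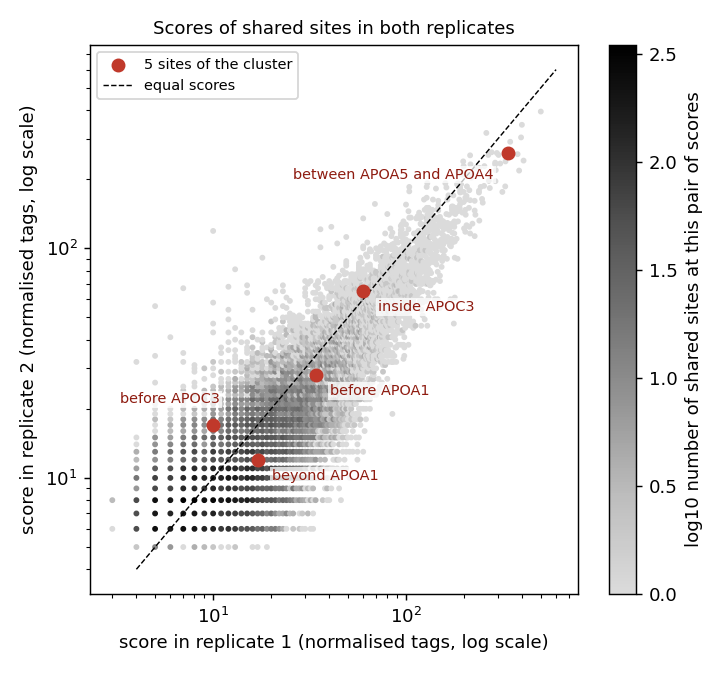
Score in replicate 1 against score in replicate 2 (both log scales, normalised tags) for the 24345 shared sites, shaded by the number of sites at each pair of scores, with the 5 sites of the cluster in red. The site between APOA5 and APOA4 stands near the top of the range, and both APOC3 sites lie above the line of equal scores.

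The other 11 replicate 1 peaks had no overlapping replicate 2 peak. Their scores ran from 5 to 20 with a median of 8, against a median of 34 for the 5 shared peaks, and 8 of the 11 scored 8 or less. A shared peak has to pass both thresholds, so this order follows in part from the calling. The shares at which replicate 1 peaks of equal score were shared over the genome add up to 7.73 of the 16 peaks, where 5 were seen. The unshared peaks with the highest scores were those at the APOA5 start (20), beyond APOA1 at chr11:116759730-116759852 (15), and upstream of APOA4 (13). Over the genome, 69.8% of replicate 1 peaks with a score of 15 and 58.9% of those with 13 were shared.

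**Figure D4:**
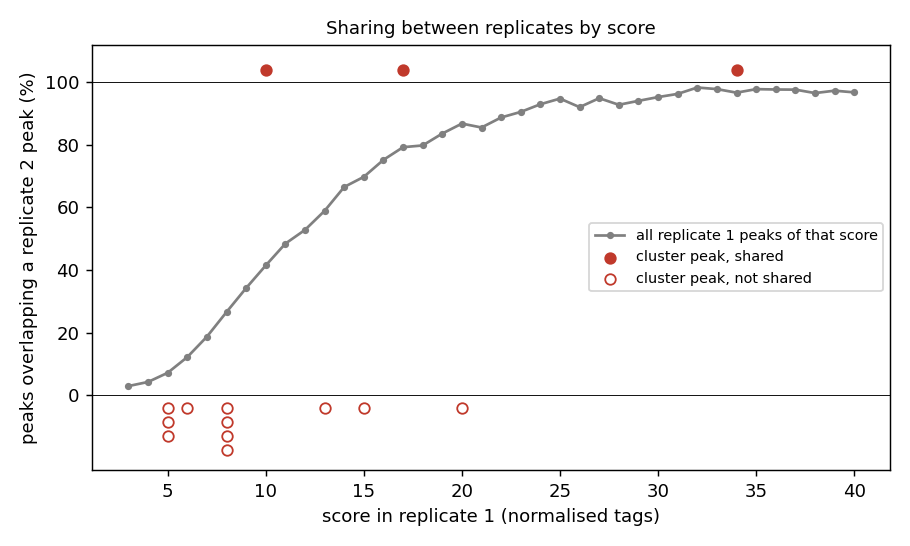
Percentage of replicate 1 peaks that overlap a replicate 2 peak, by score in normalised tags (grey line), with the cluster's peaks of up to 40 as red circles, filled above the line at 100 where shared and open below the line at 0 where not. The unshared peak at a score of 20 is that of the APOA5 start, at a score where 86.8% of peaks were shared.

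The sites of APOC3 and APOA1 formed a group. The 3 shared sites from upstream of APOC3 to upstream of APOA1 span 8.76 kb, so each has 2 others within 10 kb, as 11.4% of all shared sites do. The strongest site had no other shared site within 10 kb, where the median was 0 over all shared sites and 1 over the 100 with the best mean rank. It had these 3 within 30 kb, where the median of those 100 was 2 (interquartile range 1 to 3) and 31 had 3 or more. Within 100 kb it still had 3, where their median was 4.5 and 73 had 3 or more. The number of neighbours of the strongest site is therefore within the range of such sites at each distance.

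Among stretches of the same length, the number of shared sites was a common one and their summed score a less common one. Of 9835 windows of 250 kb that hold a peak, 1785, or 18.1%, have 5 or more shared sites. On chromosome 11 the same holds for 138 of 489. The sum of mean scores of the shared sites was 420.5, reached by 0.569% of windows, but this sum contains the site for which the region was chosen. Without the strongest site of each window the sum was 121.5 here, from the sites at APOC3, APOA1 and beyond, and 5.69% of windows reached it. Among the 557 windows with exactly 5 shared sites, the remaining 4 summed to a median of 56.5, and 16 windows reached 121.5. The strongest site made up 71.1% of the sum of mean scores here, against a median of 37.1% (interquartile range 31.0% to 44.6%) in those 557 windows. These positions among windows are descriptions, since the region was picked with its peaks known, and the copy number of chromosome 11 in Caco2 cells was not measured.

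**Figure D5:**
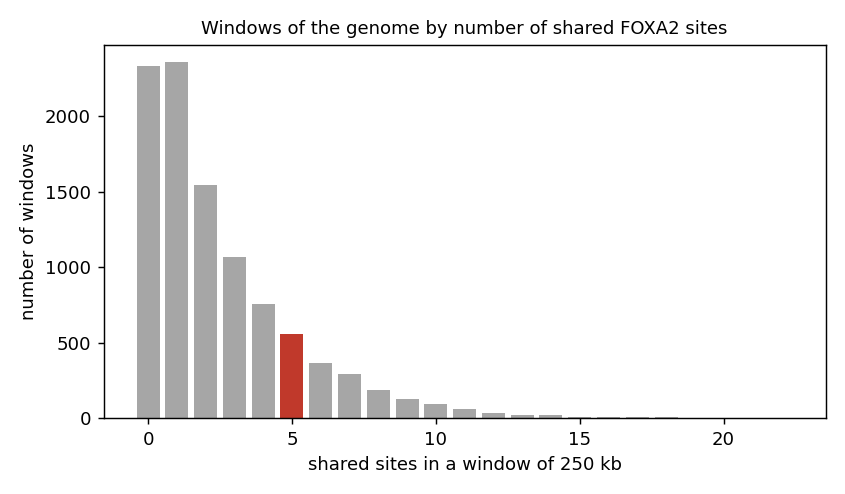
Number of 250 kb windows of the genome (those that hold a peak of either replicate) by the number of shared FOXA2 sites in them. The red bar holds the 557 windows with 5 shared sites, among them that of the cluster.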

How the data were processed

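The labels describe 2 FOXA2 ChIP-seq libraries and 1 input of Caco2 cells; the input's own values were not analysed here. The submitters' processing notes name the build hg19, Bowtie 1.0.0 and HOMER 1.2. Each replicate had its own peak call by HOMER findPeaks (factor style), requiring 4 times the input and 4 times the local 10000 bp level, each at a Poisson p-value of 0.0001, per the file headers. The deposited score is a whole number, read as the authors' tag count scaled to 10000000 tags per library, because its sum came within 0.45% and 0.20% of the tags in peaks of the file headers. A unit stands for 2.62 tags in replicate 1 and 1.58 in replicate 2, which sets the counting intervals of ratios (exact Clopper-Pearson).

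Peaks were assigned by midpoint and compared by overlap of at least 1 bp, with Python 3.11.15, pandas 2.3.3 and scipy 1.17.1. The overlap code was checked on simulated lists. All peak coordinates are 1-based on hg19. Gene borders on hg19 came with the definition of the region. Strands came from the RefSeq promoter table for APOA5 and APOA4 and from general knowledge for APOC3 and APOA1. RefSeq promoters matched 2 of the 4 genes, APOA5 and APOA4. The grid of 250 kb windows was aligned to the region. The members and lists were chosen with earlier results of these data known. All shared sites are given, and other peaks singly where they lie in or within 2 kb of a gene or, chosen after their values were seen, upstream of APOA4 or among the highest unshared scores. No test was run, since the design holds 1 condition with 2 libraries. Alternatives tried were other overlap limits, a minimum score of 10, narrower flanks, other scalings of the score and other grids and window measures.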

Additional observations from a re-analysis of the deposited data

How the results depend on the processing

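Of 31 alternatives 20 stayed close to the value reported, among them every overlap limit for the number of shared sites, which was 5 or, with midpoints within 500 bp, 6. The rank of the strongest site among shared sites was 7 by mean rank and 8 in either replicate alone. From the first to the last gene only, 3 sites were shared, since the APOA1 site lies just outside and the site beyond APOA1 far outside, and 60% of the replicate 1 peaks. With a score of at least 10, replicate 1 held 8 peaks instead of 16, of which 62.5% were shared. With midpoints within 500 bp, 100% of the replicate 2 peaks were shared, since the peaks upstream of APOA4 then pair. The ratio at the strongest site was 1.61 per base of peak width and 1.80 relative to the list medians. Each of these scalings multiplies the ratio of every shared site by the same factor. The median ratio over all shared sites moves with it, so the site's place relative to that median is unchanged. The percentage of windows reaching the cluster window was 18.1% by shared sites, from 7.45% by replicate 1 peaks to 14.8% by replicate 2 peaks when a replicate was left out, 0.569% by summed mean score and 5.69% by that sum without the strongest site, the last chosen after seeing the data. No paired analysis was possible because the design holds a single group of immunoprecipitations. The libraries differed in total tags, in immunoprecipitation efficiency (8.72% and 5.16% per the file headers) and in peak width, and the part of each in the peaks missing from replicate 2 was not tested.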

Other observations

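The windows most like that of the cluster, with 5 shared sites and the nearest sum of mean scores, were on chromosome 6 from 106560000 to 106810000 (sum 411, strongest site 349.5), on chromosome 2 from 121560000 to 121810000 (347.5 and 233) and on chromosome 1 from 203060000 to 203310000 (346.5 and 128.5). The strongest site made up 85.0% of the sum on chromosome 6, 67.1% on chromosome 2 and 37.1% on chromosome 1, against 71.1% at the apolipoprotein genes.

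Just outside the region, the nearest peaks lay 21.7 kb before it in both replicates, with a score of 13 in replicate 1 and 34 in replicate 2. Beyond its other end, the nearest peaks scored 9 in replicate 1, at 2.25 kb, and 7 in replicate 2, at 7.36 kb. The first and last peaks inside scored 5 and 8 in replicate 1, and 259 and 12 in replicate 2.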
